A study of Mus musculus with 12 samples.

Results

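The effect of cuprizone on the corpus callosum was measured as an average over wild-type (WT) mice and mice deficient for the aryl hydrocarbon receptor (AHR) in microglia (AHR CKO). All 12 libraries of the series entered the comparison, 6 from cuprizone-treated mice (CPZ) against 6 from controls (Ctrl), with genotype as a covariate. The 4 groups of 3 libraries were WT Ctrl, WT CPZ, AHR CKO Ctrl and AHR CKO CPZ, all from total RNA of dissected corpus callosum. The sources used here do not give the cuprizone dose and duration, the control diet, the Cre line, or the sex and age of the animals. Values were deposited as FPKM (a fragment count divided by transcript length and library size). A gene entered the test when at least 3 libraries reached FPKM 1, and the 13759 such genes of 15584 were tested with limma on log2(FPKM + 1). A gene was called at a Benjamini-Hochberg adjusted p under 0.05. It was counted in the common response when it was called and its 3 CPZ libraries all lay on the same side of its 3 Ctrl libraries in WT and again in AHR CKO. Fold changes are ratios of mean FPKM over the 6 libraries, whereas log2 changes are on the log2(FPKM + 1) scale and understate the changes of low genes.

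Cuprizone is a copper chelator. Fed to mice, it leads to the death of mature oligodendrocytes, the cells that wrap axons of the corpus callosum in myelin. Myelin debris is then taken up by microglia, the resident phagocytes of the brain, while astrocytes enlarge and form a scar-like network. Oligodendrocyte precursors can replace the lost cells once the toxin is withdrawn.

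FPKM totals were 447156 to 519470 per library, and a rough estimate from the lowest values gave 11400000 to 14900000 fragments per library. Libraries of the same group correlated across genes with r of 0.972 to 0.993. Along the first principal component, with 44.82% of the variance, all CPZ libraries were apart from all Ctrl libraries, and along the next, with 23.56%, the genotypes were apart. Whether replicates were different animals is not said in the labels, and the p-values therefore cover only the spread between these libraries, which may be technical. Ahr itself ran from 1.41 to 2.22 FPKM in Ctrl and from 1.48 to 2.57 in CPZ libraries (log2 change 0.066 ± 0.11, adjusted p = 0.713). That level checks no genotype label, since the sources used here do not name the deleted part and the tissue holds many other cells. In bulk tissue, fewer cells of a type and less RNA per cell cannot be told apart.

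Cuprizone changed 3112 genes in the averaged test, 22.6% of those tested. Of these, 1632 (11.9%) were higher and 1480 (10.8%) lower. At least a 2-fold change on the log2 scale was reached by 411 of the higher genes (2.99% of those tested) and by 125 of the lower (0.908%). The common response held 2093 genes (15.2%), 1160 higher (8.43%) and 933 lower (6.78%), which is 67.3% of all calls. Its largest increases were in genes of phagocytes, antigen presentation and chemokines, led by Cst7, Clec7a, Lyz2, Cd74 and Lgals3. Its largest decreases were in oligodendrocyte genes, led by Mal, Ppp1r14a, Ninj2, Aspa and Fa2h. In 1361 genes (9.89%) all 6 CPZ libraries lay on the same side of all 6 Ctrl libraries. The median log2 change over all tested genes was -0.026.

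The genotypes share no library, so each can be read as a separate measurement of the same treatment. Fitted apart, WT gave 1880 calls (13.7%; 7.88% higher and 5.79% lower) and AHR CKO 1172 (8.52%; 6% higher and 2.52% lower). Both fits called 895 genes in the same direction (6.5%; 4.43% higher and 2.07% lower) and 1 gene in opposite directions (0.00727%). The 895 are 47.6% of the WT calls and 76.4% of the AHR CKO calls. Of the WT calls, 94.6% had the same sign in AHR CKO, and of the AHR CKO calls 97.7% had the same sign in WT, against 69.4% of all tested genes. Across genes, which are not independent replicates, the log2 changes of the 2 genotypes correlated with a Pearson r of 0.783 and a Spearman rho of 0.574. Within the common response the direction is the same in both genotypes by definition, so only sizes can be compared there. Of its 933 lower genes, 715 (76.6%) fell further in WT, whereas of its 1160 higher genes 666 (57.4%) rose further in WT. The same share over all tested genes is not given here. A test of the difference itself, the genotype by cuprizone interaction, called 5 genes (0.0363%), and 1316 (9.56%) had an unadjusted interaction p under 0.05. The 5 were Hspa5, Egr2, Aspa, Hspa1b and Opalin. This count rested on single libraries. It was 0 without WT Ctrl replicate 1, any AHR CKO Ctrl replicate or AHR CKO CPZ replicate 1 or 2, 1 without WT Ctrl replicate 2, WT CPZ replicate 1 or AHR CKO CPZ replicate 3, 38 without WT CPZ replicate 2 and 103 without WT Ctrl replicate 3. Aspa and Opalin belong to the common response, since they fell in each genotype, whereas the other 3 do not.

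**Figure D1:**
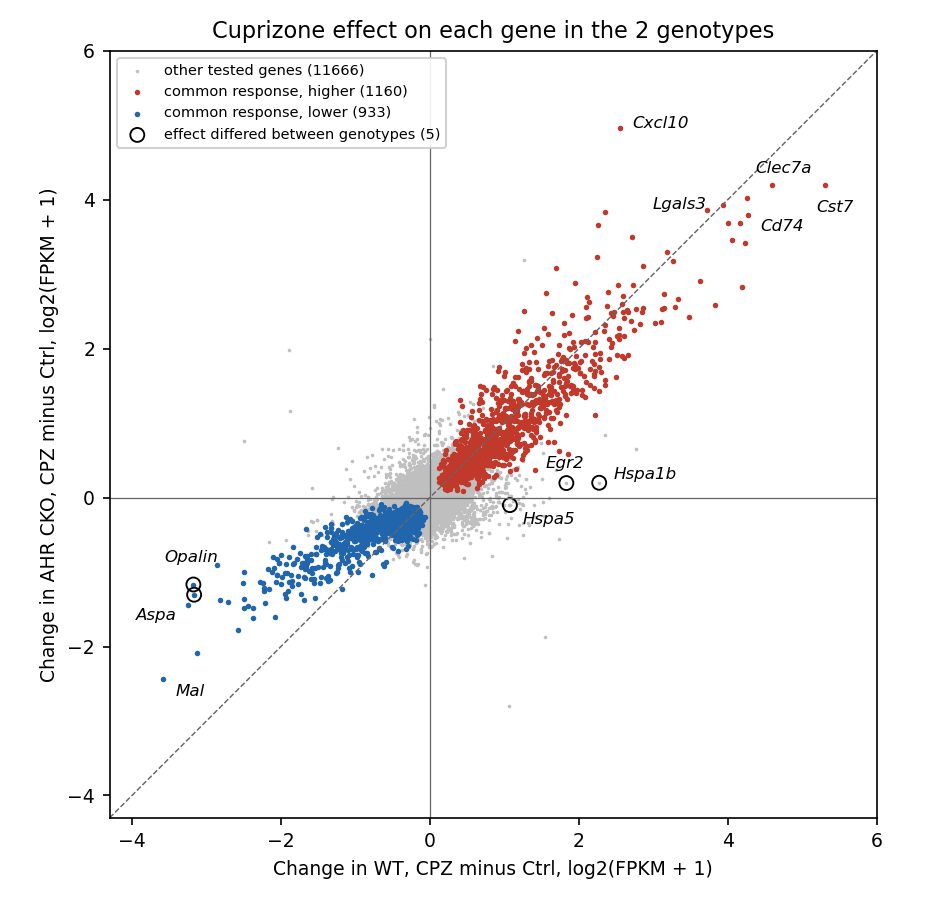
Each point is 1 of 13759 tested genes, placed by its log2 change with cuprizone in WT (x axis) and in AHR CKO (y axis), both as CPZ minus Ctrl on log2(FPKM + 1), from separate fits of 6 libraries. The 1160 higher (red) and 933 lower (blue) genes of the common response lie in 2 quadrants, the dashed line marks equal change, and circles mark the 5 genes whose effect differed between genotypes. Most of the blue points lie above the line, where the fall was larger in WT.

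Transcripts of compact myelin fell. Of the 18 tested genes of the myelin sheath, 15 fell, all of them in the common response, 1 rose and 2 were not called, and the median log2 change was -1.43 (-1.88 in WT and -1.001 in AHR CKO). Mal ran from 322 to 688 FPKM (median 365) in the 6 control libraries and from 34.02 to 67.5 (median 50.2) in the 6 cuprizone libraries. Mal, at chr2:127633226-127656695 (GRCm38), encodes a proteolipid of compact myelin and fell 8.29-fold (log2 change -3.01 ± 0.21, adjusted p = 4.9e-07). Mbp, which holds the membrane layers of myelin together, fell from 6000.4 to 10912 FPKM (median 6436) to 2053 to 3428 (median 2627) (log2 change -1.45 ± 0.18, adjusted p = 5.68e-05). Every CPZ library lay below every Ctrl library. Mog, an antigen on the outer surface of myelin, fell from 112 to 232 FPKM (median 131) to 28.2 to 49.05 (median 41.4) (log2 change -1.93 ± 0.19, adjusted p = 8.35e-06). The same direction was called for Cldn11 (log2 change -1.71), the claudin of myelin tight junctions, Ermn (-1.55), Mobp (-1.53), Mag (-1.42), which faces the axon, and Cnp (-0.96). Cd9, a tetraspanin found on myelin and also on microglia, was the member that rose, from 100.4 to 178 FPKM (median 123) to 171 to 291 (median 208) (log2 change 0.78 ± 0.14, adjusted p = 0.0013).

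The enzymes that build myelin lipids fell with the sheath proteins. Of 16 tested, 10 fell and 1 rose, with a median log2 change of -0.57. Fa2h ran from 63.5 to 130.0 FPKM (median 76.3) in the 6 control libraries and from 12.6 to 20.1 (median 18.6) in the 6 cuprizone libraries. Fa2h hydroxylates the fatty acids of myelin galactolipids and fell 4.84-fold (log2 change -2.18 ± 0.17, adjusted p = 1.13e-06). Ugt8a, which makes galactosylceramide, fell from 46.5 to 125 FPKM (median 68.9) to 13.1 to 26.7 (median 20.6) (log2 change -1.84 ± 0.17, adjusted p = 4.55e-06). Aspa, which splits N-acetylaspartate to give acetate, fell in both genotypes, but further in WT. Its WT values were 64.03, 73.05 and 43.9 FPKM in Ctrl and 4.65, 6.58 and 5.99 in CPZ. In AHR CKO they were 41.4, 34.8 and 28.3 and 12.96, 12.8 and 14.4. The log2 change was -3.17 in WT and -1.304 in AHR CKO, a difference of 1.86 that passed the interaction test (adjusted p = 0.0398). The member that rose was Sgpl1, the lyase that ends sphingolipid breakdown (log2 change 0.86, adjusted p = 1.58e-05). Galc and Arsa, the lysosomal enzymes that degrade galactosylceramide and sulfatide, were not called (log2 changes -0.037 and -0.036).

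Other genes of mature oligodendrocytes fell too. Of 36 tested, 29 fell, 0 rose and 7 were not called, and the median log2 change was -1.09. Ppp1r14a ran from 123 to 247 FPKM (median 133) in the 6 control libraries and from 16.3 to 39.95 (median 22.3) in the 6 cuprizone libraries. Ppp1r14a encodes an inhibitor of myosin phosphatase and fell 6.25-fold (log2 change -2.61 ± 0.22, adjusted p = 1.91e-06). Ninj2, an adhesion molecule, fell from 10.1 to 26.4 FPKM (median 14.7) to 0.142 to 5.92 (median 2.55) (log2 change -2.34 ± 0.35, adjusted p = 0.000249). Klk6, a secreted protease of oligodendrocytes, fell to 0.966, 1.53 and 3.94 FPKM in the 3 WT CPZ libraries and to 5.297, 5.11 and 6.03 in the 3 AHR CKO CPZ libraries, from 14.2 to 24.04 in Ctrl (log2 change -2.06 ± 0.26, adjusted p = 6.96e-05). Il33, an alarmin stored in the nuclei of oligodendrocytes and astrocytes, fell from 36.95 to 109 FPKM (median 57.8) to 12.05 to 23.6 (median 18.7) (log2 change -1.75 ± 0.24, adjusted p = 0.000147). The oligodendrocyte connexin Gjb1 fell (log2 change -1.35). Of 28 genes of microtubules and transport in myelinating processes, 23 fell and 3 rose, among them Kif13b (log2 change -1.25) and Tppp3 (-0.98) on the lower side and Tubb2b (0.49), a tubulin of growing cells, on the higher.

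Regulators and earlier stages of the lineage had medians closer to 0. For comparison, 11.9% of all tested genes were called higher and 10.8% lower. Of 24 transcription factors of the lineage, 9 fell and 1 rose, with a median of -0.21. Sox10, needed throughout the lineage, fell from 52.3 to 82.2 FPKM (median 57.1) to 34.7 to 51.5 (median 47.6) (log2 change -0.46 ± 0.14, adjusted p = 0.0275), a call lost without WT Ctrl replicate 1 or 2 or WT CPZ replicate 1 or 3 (largest adjusted p = 0.0603) and also with a replicate block within each genotype (adjusted p = 0.0603). Olig1 and Zfp536 fell (log2 changes -0.53 and -0.94), whereas Olig2 was not called (log2 change 0.009, adjusted p = 0.976). Of 23 precursor genes, 1 rose and 3 fell, with a median of -0.032. Without WT Ctrl replicate 2, 5 rose, and without AHR CKO Ctrl replicate 3, 3 rose and 4 fell. Pdgfra, the growth factor receptor that defines precursors, ran 9.23 to 14.02 FPKM in Ctrl and 9.11 to 11.4 in CPZ libraries (log2 change -0.22 ± 0.082, adjusted p = 0.0674), so the groups overlapped. It was called lower without WT Ctrl replicate 3 or AHR CKO Ctrl replicate 3 (adjusted p = 0.0427 at most), under quantile normalization (0.0493), with sample quality weights (0.0154) and after a correction for length and GC content added after seeing the data (0.0292). Ptprz1, a phosphatase of precursors, was not called (log2 change 0.15, adjusted p = 0.449), but was called higher after the correction for length and GC content (log2 change 0.311, adjusted p = 0.0381). Among 19 genes of differentiating oligodendrocytes 3 rose and 2 fell, shares near those over all tested genes. Without AHR CKO CPZ replicate 1, 8 rose. The non-coding RNA 9630013A20Rik, a marker of newly formed oligodendrocytes, rose (log2 change 0.98 ± 0.19, adjusted p = 0.00187), Enpp6, an enzyme of the same stage, fell (log2 change -0.70 ± 0.17, adjusted p = 0.0101), and Bcas1 was not called (log2 change 0.033). Of 22 genes of the node of Ranvier and the adjoining paranode, 10 fell. These included Cntn2 (-1.32) and the potassium channels Kcna1 (-0.82) and Kcna2 (-0.40). Gldn, which clusters sodium channels, was the member that rose (log2 change 0.81 ± 0.12, adjusted p = 0.000327), from a Ctrl level of 0.288 to 0.414 FPKM, where the FPKM is at its least precise.

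Cholesterol synthesis fell almost as a block. Myelin is the largest pool of cholesterol in the brain, and its sterol is made locally. Of 26 tested genes, 22 fell, all of them in the common response, 0 rose, and all 26 changes were negative. The median log2 change was -0.78 in WT and -0.68 in AHR CKO. The decrease was larger in WT for 23 of the 26, and none passed the interaction test. A larger decrease in WT was also seen in 76.6% of all lower genes of the common response. Idi1 ran from 9.64 to 15.9 FPKM (median 11.9) in the 6 control libraries and from 3.28 to 4.37 (median 4.004) in the 6 cuprizone libraries. Idi1 encodes isopentenyl diphosphate isomerase and fell 3.2-fold (log2 change -1.45 ± 0.10, adjusted p = 5.36e-07). Hmgcs1, which makes HMG-CoA, fell from 100.2 to 140.2 FPKM (median 115) to 41.2 to 56.05 (median 51.4) (log2 change -1.24 ± 0.098, adjusted p = 1.35e-06). Sqle, the squalene epoxidase, fell too (log2 change -0.87). Srebf2, the transcription factor that drives these genes, fell from 59.1 to 75.3 FPKM (median 68.2) to 38.9 to 54.6 (median 44.9) (log2 change -0.57 ± 0.073, adjusted p = 7.87e-05). Its relative Srebf1, which favours fatty acid synthesis, rose instead, from 18.7 to 25.5 FPKM (median 22.5) to 37.2 to 49.2 (median 40.7) (log2 change 0.90 ± 0.089, adjusted p = 8.41e-06). Of 18 genes of fatty acid synthesis 9 fell and 2 rose. Scd1 and Scd2, desaturases that make oleate, fell (log2 changes -1.26 and -0.65), and so did Fasn, the fatty acid synthase (-0.39).

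Genes that carry, release or store sterol moved the other way. Of 36 such genes 14 rose and 5 fell. Apoe ran from 1879.7 to 3585 FPKM (median 2706) in the 6 control libraries and from 9364 to 14005 (median 10830.4) in the 6 cuprizone libraries. Apoe, the main lipoprotein of the brain, rose 4.15-fold (log2 change 2.07 ± 0.14, adjusted p = 5.36e-07) and was among the called genes of highest FPKM. Apoc1, its neighbour in the same gene cluster, rose from 1.395 to 5.82 FPKM (median 3.85) to 16.8 to 88.3 (median 49.8) (log2 change 3.51 ± 0.35, adjusted p = 9.98e-06). Abca1, which loads cholesterol onto lipoproteins, rose by 1.71 on the log2 scale, Ch25h, which makes 25-hydroxycholesterol, by 2.498, Plin2, a coat protein of lipid droplets, by 1.61, and Soat1, which esterifies cholesterol, by 0.69. Abcg1, another cholesterol exporter, was not called (log2 change 0.15 ± 0.071, adjusted p = 0.164). Npc1, which moves cholesterol out of lysosomes, fell (log2 change -0.57 ± 0.10, adjusted p = 0.00106), whereas its partner Npc2 rose (log2 change 0.86 ± 0.090, adjusted p = 1.34e-05).

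Genes of the disease-associated microglial state held the largest increases. Of 41 tested, 33 rose, all in the common response, and 1 fell, with a median log2 change of 1.96 (2.21 in WT, 1.62 in AHR CKO). Cst7 ran from 0.216 to 1.8 FPKM (median 0.646) in the 6 control libraries and from 21.5 to 107 (median 42.1) in the 6 cuprizone libraries. Cst7, at chr2:150570415-150578944 (GRCm38), encodes a cystatin that inhibits cathepsins, and it rose 69.2-fold (log2 change 4.76 ± 0.27, adjusted p = 1.35e-07). Clec7a ran from 0.182 to 1.303 FPKM (median 0.479) in the 6 control libraries and from 16.98 to 48.7 (median 33.5) in the 6 cuprizone libraries. Clec7a, the beta-glucan receptor dectin-1, rose 57.8-fold (log2 change 4.395 ± 0.20, adjusted p = 4.61e-08). No CPZ library of either gene came near the highest Ctrl value. Lgals3, a galectin that binds damaged lysosomes, rose from 0.583 to 1.98 FPKM (median 1.31) to 23.99 to 55.01 (median 31.5) (log2 change 3.94 ± 0.16, adjusted p = 4.54e-08). Itgax, the integrin CD11c, rose by 3.76, Spp1, which encodes osteopontin, by 3.92 and Gpnmb, a glycoprotein of lipid-laden phagocytes, by 3.22 on the log2 scale. Trem2, a lipid-sensing receptor needed for this state, rose from 17.6 to 24.1 FPKM (median 19.3) to 89.4 to 168 (median 127) (log2 change 2.58 ± 0.12, adjusted p = 5.3e-08), and its adaptor Tyrobp by 2.68 on the log2 scale.

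**Figure D2:**
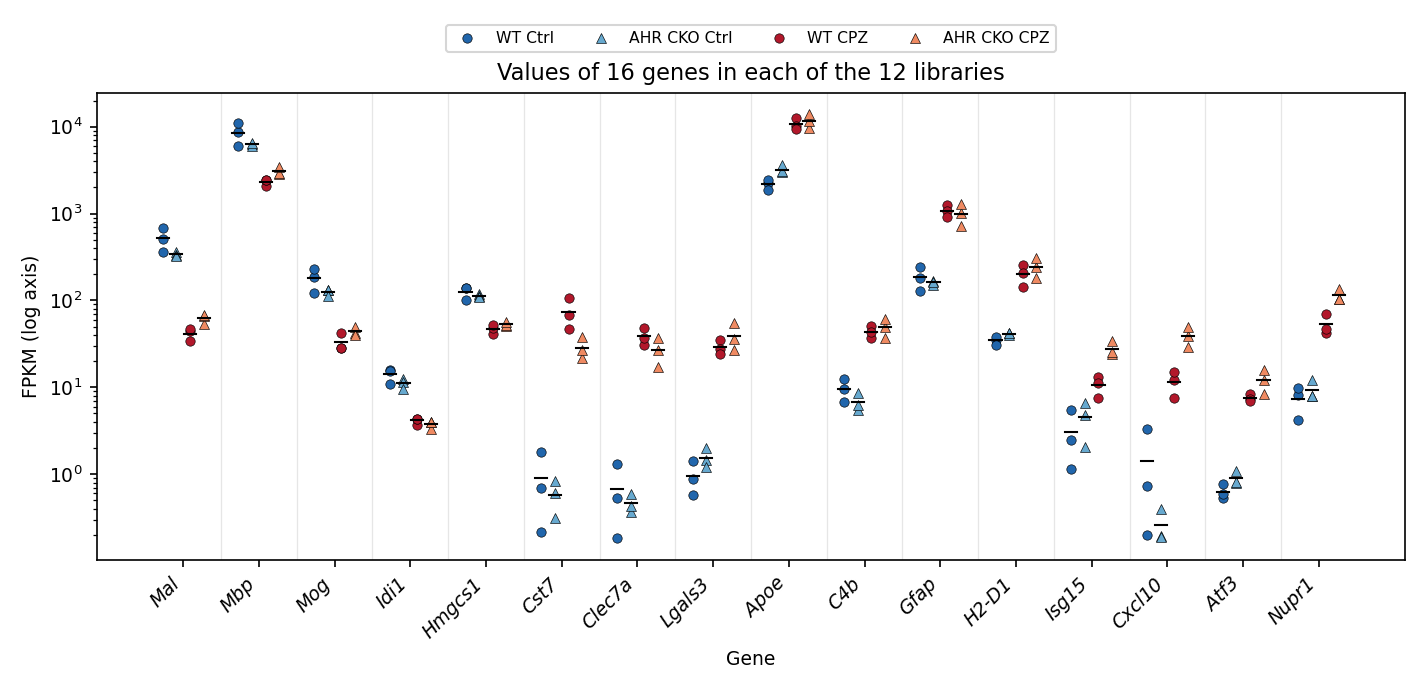
FPKM on a log axis of 16 genes (x axis) in each of the 12 libraries, with circles for WT, triangles for AHR CKO, blue for Ctrl, red and orange for CPZ, and a short bar for the mean of each group of 3. The 5 oligodendrocyte and sterol genes on the left lie lower in CPZ and the 11 genes to their right lie higher, with no overlap between the 6 Ctrl and the 6 CPZ libraries of any gene.

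Few microglial genes of the resting state fell. Of 30 tested, 17 rose and 2 fell. Csf1r, the survival receptor of microglia, rose from 26.5 to 35.4 FPKM (median 31.6) to 39.6 to 124 (median 80.9) (log2 change 1.31 ± 0.16, adjusted p = 5.64e-05), and Aif1 rose by 1.71 on the log2 scale. P2ry12, the ADP receptor of resting microglia, ran from 18.96 to 27.1 FPKM in Ctrl and 11.4 to 25.9 in CPZ libraries (log2 change -0.30 ± 0.12, adjusted p = 0.0953), and Tmem119 from 14.6 to 19.4 and 12.6 to 23.4 (log2 change 0.002 ± 0.12, adjusted p = 0.994). Their groups overlapped, and P2ry12 was called lower without WT CPZ replicate 1 (adjusted p = 0.0397) and with sample quality weights (0.0453). Cx3cr1, the fractalkine receptor, varied most. It was 24.9, 24.4 and 22.6 FPKM in WT Ctrl, 69.4, 49.4 and 58.7 in WT CPZ, 1.05, 9.598 and 0.801 in AHR CKO Ctrl and 1.16, 22.7 and 29.6 in AHR CKO CPZ. The averaged change was not called (log2 change 1.52 ± 0.59, adjusted p = 0.0822), and was called higher without AHR CKO Ctrl replicate 2 or AHR CKO CPZ replicate 1 (adjusted p = 0.0377 at most), with a replicate block within each genotype (adjusted p = 0.0318) or with sample quality weights (adjusted p = 0.0336). With WT libraries only, Cx3cr1 was called higher too (log2 change 1.257, adjusted p = 0.000946). Slc2a5, a fructose transporter of microglia, was one of the 2 members that fell (log2 change -0.51 ± 0.099, adjusted p = 0.00226).

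Phagocytic machinery rose in parts. All 9 tested Fc gamma receptor genes and partners rose (median 1.72), with near-equal medians of 1.69 in WT and 1.72 in AHR CKO. Fcgr2b, the inhibitory receptor, rose from 2.08 to 3.205 FPKM (median 2.27) to 8.26 to 29.9 (median 15.3) (log2 change 2.29 ± 0.23, adjusted p = 7.75e-06). Fcer1g, the shared signalling chain, rose by 2.24 on the log2 scale. Of 8 genes of the phagocyte NADPH oxidase 7 rose, among them the membrane subunits Cybb (2.48) and Cyba (2.58). Only Rac1, which most cells express, was not called. Among 38 receptors and adaptors of engulfment 19 rose and 5 fell. Of the 3 TAM receptors, which recognise phosphatidylserine through bridging proteins, Axl rose (log2 change 1.46 ± 0.11, adjusted p = 7.17e-07), Tyro3 fell (log2 change -0.58 ± 0.12, adjusted p = 0.00355) and Mertk was not called (log2 change 0.35 ± 0.12, adjusted p = 0.0622). Mertk was called higher without AHR CKO CPZ replicate 1 (adjusted p = 0.000623), under quantile normalization (0.046), with sample quality weights (0.0124), after the correction for length and GC content (0.0086) and with WT libraries only (0.0235). Pros1, a bridging ligand, rose by 1.37 on the log2 scale.

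Lysosomal enzymes rose widely, and lysosomal membrane proteins in part. Of 43 hydrolases and their cofactors 34 rose and 2 fell, with a median of 0.68. Ctsd, an aspartic protease, rose from 215 to 268 FPKM (median 239) to 611 to 1578 (median 959) (log2 change 1.96 ± 0.16, adjusted p = 1.92e-06). Ctss, a cathepsin of phagocytes, rose by 2.36, Grn by 1.84 and Gusb, a glucuronidase, by 1.43 on the log2 scale. Of 26 membrane proteins and regulators, 10 rose and 3 fell. Cd68 rose by 2.7 on the log2 scale, but Scarb2, which carries an enzyme into lysosomes, was not called (log2 change -0.084 ± 0.11, adjusted p = 0.639). Of 19 subunits of the vacuolar proton pump 2 rose, 2 fell and 15 were not called. These shares are near the 11.9% higher and 10.8% lower over all tested genes. Tcirg1, the pump subunit of osteoclasts and macrophages, rose from 5.802 to 9.12 FPKM (median 7.21) to 12.4 to 20.5 (median 15.2) (log2 change 1.01 ± 0.12, adjusted p = 2.67e-05), whereas Atp6v0c, a core subunit of the same pump, was not called (-0.014).

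Several defining markers of cells that could enter the tissue were low or absent from the test. Of 7 tested monocyte and neutrophil genes 4 rose. These were Csf3r (1.998) and Itgal (0.64), both also expressed by microglia, Fn1 and Ly6c2. Ly6c2 is also on the endothelial list and lay outside the common response. Ccr2, which defines inflammatory monocytes, was too low to be tested, at 0.0258 to 0.331 FPKM over the 12 libraries. The summed FPKM of this list was 42.0 to 51.3 in WT Ctrl, 83.3 to 110.2 in WT CPZ, 77.7 to 107 in AHR CKO Ctrl and 73.3 to 112 in AHR CKO CPZ. Of the macrophages of brain borders, Mrc1, Cd163 and Lyve1 stayed below 0.624 FPKM in every library. Of 5 tested genes of this list 3 rose (2 or 3 on leaving out any 1 library) and 0 fell. The list's 12 genes summed to 8.26 to 11.3 FPKM in WT Ctrl, 13.6 to 20.4 in WT CPZ, 9.65 to 11.4 in AHR CKO Ctrl and 11.7 to 14.9 in AHR CKO CPZ. Of the lymphocyte list 3 genes could be tested, and only Ptprc, the CD45 phosphatase of all leukocytes, rose (log2 change 2.13 ± 0.18, adjusted p = 2.22e-06). Cd8a and Il7r reached at most 0.517 and 0.471 FPKM. The list's 9 genes summed to 292 to 361 FPKM in WT Ctrl, 288 to 323 in WT CPZ, 351 to 426 in AHR CKO Ctrl and 317 to 384 in AHR CKO CPZ. Most of this was Thy1, which neurons also express, at 284 to 416 in Ctrl and 270.0 to 367 in CPZ libraries, which overlapped. The part of entering cells in the increases of shared phagocyte genes was not tested.

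Complement and antigen presentation rose in both genotypes. Of 20 complement genes 15 rose and 0 fell. The C1q chains C1qa, C1qb and C1qc, which start the classical cascade, rose by 2.41, 2.26 and 2.39 on the log2 scale. C4b, the next component, rose from 5.42 to 12.5 FPKM (median 7.603) to 37.05 to 61.1 (median 46.2) (log2 change 2.402 ± 0.17, adjusted p = 7.17e-07). C3 rose by 1.903 and its receptor C3ar1 by 2.51. Of 21 genes of MHC class I presentation 20 rose, and the medians were 1.14 in WT and 1.14 in AHR CKO. H2-D1 ran from 30.4 to 42.4 FPKM (median 38.9) in the 6 control libraries and from 144 to 307 (median 222) in the 6 cuprizone libraries. H2-D1, a classical class I heavy chain, rose 5.83-fold (log2 change 2.48 ± 0.14, adjusted p = 1.21e-07), its light chain B2m by 2.15 and the peptide transporter Tap1 by 1.82 on the log2 scale. The immunoproteasome subunits Psmb8 and Psmb9 rose by 2.27 and 1.82, whereas Psmb10 rose by 0.51. All 11 class II genes rose, led by the invariant chain Cd74, from 2.27 to 9.28 FPKM (median 3.96) to 34.1 to 138 (median 109) (log2 change 4.04 ± 0.37, adjusted p = 4.67e-06), and by H2-Aa (3.27) and H2-Ab1 (2.998). Class I heavy chains are near-identical to each other, and the sources used here do not say how shared fragments were assigned, so the split among them is uncertain.

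Interferon-stimulated genes rose nearly without exception. Interferons act through transcription factor complexes that bind a response element in the promoters of their targets. Of 61 tested genes of the type I interferon response 57 rose and 0 fell, with medians of 0.93 in WT and 1.23 in AHR CKO. The change was larger in AHR CKO for 41 of the 61, and 11 had an unadjusted interaction p under 0.05, but none passed the interaction test. Of 13 interferon-induced GTPases 12 rose, and 11 of the 13 rose further in AHR CKO. Among all higher genes of the common response 57.4% rose further in WT. RefSeq promoters (GRCm38.p6, 250 bases before each start) held the letters of the response element, GAAANNGAAA on either strand, in 2.98% of 32851 entries. Promoters were at hand for under 80% of the members of both lists, so no share is given for them. On the MHC class I list, which holds B2m, 3 of the 17 promoters at hand held the letters (17.6%). The windows of 6 called genes below were picked because they hold this motif. They do not show how common it is among the genes that rose. The motif is in capitals:
Isg15 (chr4:156200862-156200921, minus strand): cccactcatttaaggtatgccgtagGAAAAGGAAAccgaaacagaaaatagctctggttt
Ifit3 (chr19:34583348-34583407, plus strand): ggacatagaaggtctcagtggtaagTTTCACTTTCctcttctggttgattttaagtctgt
Bst2 (chr8:71537568-71537627, minus strand): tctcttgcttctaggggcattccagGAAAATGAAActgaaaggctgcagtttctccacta
Oas1a (chr5:120907526-120907570, minus strand): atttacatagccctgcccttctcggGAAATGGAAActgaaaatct
Igtp (chr11:58199497-58199555, plus strand): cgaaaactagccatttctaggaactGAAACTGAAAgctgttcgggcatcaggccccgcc
B2m (chr2:122147523-122147582, plus strand): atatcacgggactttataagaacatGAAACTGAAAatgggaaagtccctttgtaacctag
Windows read 5′ to 3′ on the strand of the gene, and TTTCNNTTTC is the same motif read on the opposite strand. Isg15 ran from 1.15 to 6.67 FPKM (median 3.61) in the 6 control libraries and from 7.57 to 34.1 (median 18.6) in the 6 cuprizone libraries. Isg15, a ubiquitin-like protein attached to other proteins, rose 5.11-fold (log2 change 2.06 ± 0.29, adjusted p = 0.000152), with no overlap between treatments. Bst2, which tethers enveloped viruses, rose by 2.67 on the log2 scale, Ifit3 by 2.15, Oas1a by 1.76 and Igtp by 1.49. The interferon regulatory factors Irf9 and Irf7 rose too, by 1.15 and 2.18. Of the receptor chains, Ifnar2 rose (log2 change 0.55 ± 0.097, adjusted p = 0.0011), while Ifnar1 was not called (log2 change 0.083 ± 0.073, adjusted p = 0.451). Several of these families hold near-identical copies, to which the same limit on shared fragments applies. A motif match is a description of letters and says nothing of binding.

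Chemokines and innate receptors rose in part. Of 11 tested CC chemokine and receptor genes 7 rose and of 9 CXC genes 5 rose, with none lower. Cxcl10, an interferon-induced chemokine for T cells, was 3.3, 0.733 and 0.198 FPKM in WT Ctrl and 12.04, 7.51 and 15.1 in WT CPZ. In AHR CKO it was 0.196, 0.191 and 0.399 in Ctrl and 28.9, 39.5 and 49.1 in CPZ. It rose in the average (log2 change 3.76 ± 0.43, adjusted p = 2.63e-05), and the larger increase in AHR CKO did not pass the interaction test (adjusted p = 0.2). Ccl3, a chemokine of activated microglia, rose from 0.682 to 1.98 FPKM (median 1.02) to 17.9 to 38.5 (median 27.2) (log2 change 3.79 ± 0.18, adjusted p = 5.3e-08). Cxcl12, made mainly by vessels and neurons, was not called (log2 change 0.12). Of 40 genes of cytokine signalling and NF-kB 28 rose and 2 fell. These included Tgfb1 (1.49), the TNF receptor Tnfrsf1a (1.47) and the oncostatin M receptor Osmr (2.08). Of 20 Toll-like receptor genes and adaptors 16 rose, led by Tlr2 (log2 change 2.54 ± 0.17, adjusted p = 4.31e-07), a sensor of bacterial lipopeptides, and its co-receptor Cd14 (2.46).

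Reactive astrocyte genes rose in 32 of 35 cases and fell in 0, with medians of 1.33 in WT and 1.82 in AHR CKO. Gfap ran from 129.6 to 245 FPKM (median 166) in the 6 control libraries and from 722 to 1272 (median 1045) in the 6 cuprizone libraries. Gfap, the intermediate filament of astrocytes, rose 6.02-fold (log2 change 2.58 ± 0.16, adjusted p = 2.01e-07). Serpina3n, a secreted protease inhibitor, rose from 5.49 to 11.8 FPKM (median 8.804) to 85.2 to 195 (median 141) (log2 change 3.84 ± 0.21, adjusted p = 8.09e-08), and its groups were separate. Vim, another filament protein, rose by 2.79, Timp1 by 2.45 and Cd44, the hyaluronan receptor, by 2.11 on the log2 scale. Tgm1, a transglutaminase, rose from 0.0505 to 0.231 FPKM in Ctrl to 3.85 to 21.01 in CPZ (log2 change 2.96 ± 0.26, adjusted p = 3.13e-06). Genes of resting astrocytes were mixed, with 15 of 38 higher, 4 lower (1 without WT Ctrl replicate 1, WT CPZ replicate 3, AHR CKO Ctrl replicate 2 or AHR CKO CPZ replicate 3, and 2 without WT CPZ replicate 1, AHR CKO Ctrl replicate 1 or 3 or AHR CKO CPZ replicate 2) and a median of 0.16. Aqp4, the water channel of their endfeet, rose (log2 change 0.72 ± 0.14, adjusted p = 0.00232) and so did the glutamate transporter Slc1a3 (log2 change 0.91 ± 0.13, adjusted p = 0.000141), whereas Slc1a2, the other main glutamate transporter, was not called (log2 change -0.23 ± 0.11, adjusted p = 0.163). Of 18 S100 proteins and annexins 12 rose, among them S100a6 (2.004), S100a11 (1.94) and Anxa2 (1.35). S100b, which both astrocytes and oligodendrocytes make, was not called (-0.15).

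**Figure D3:**
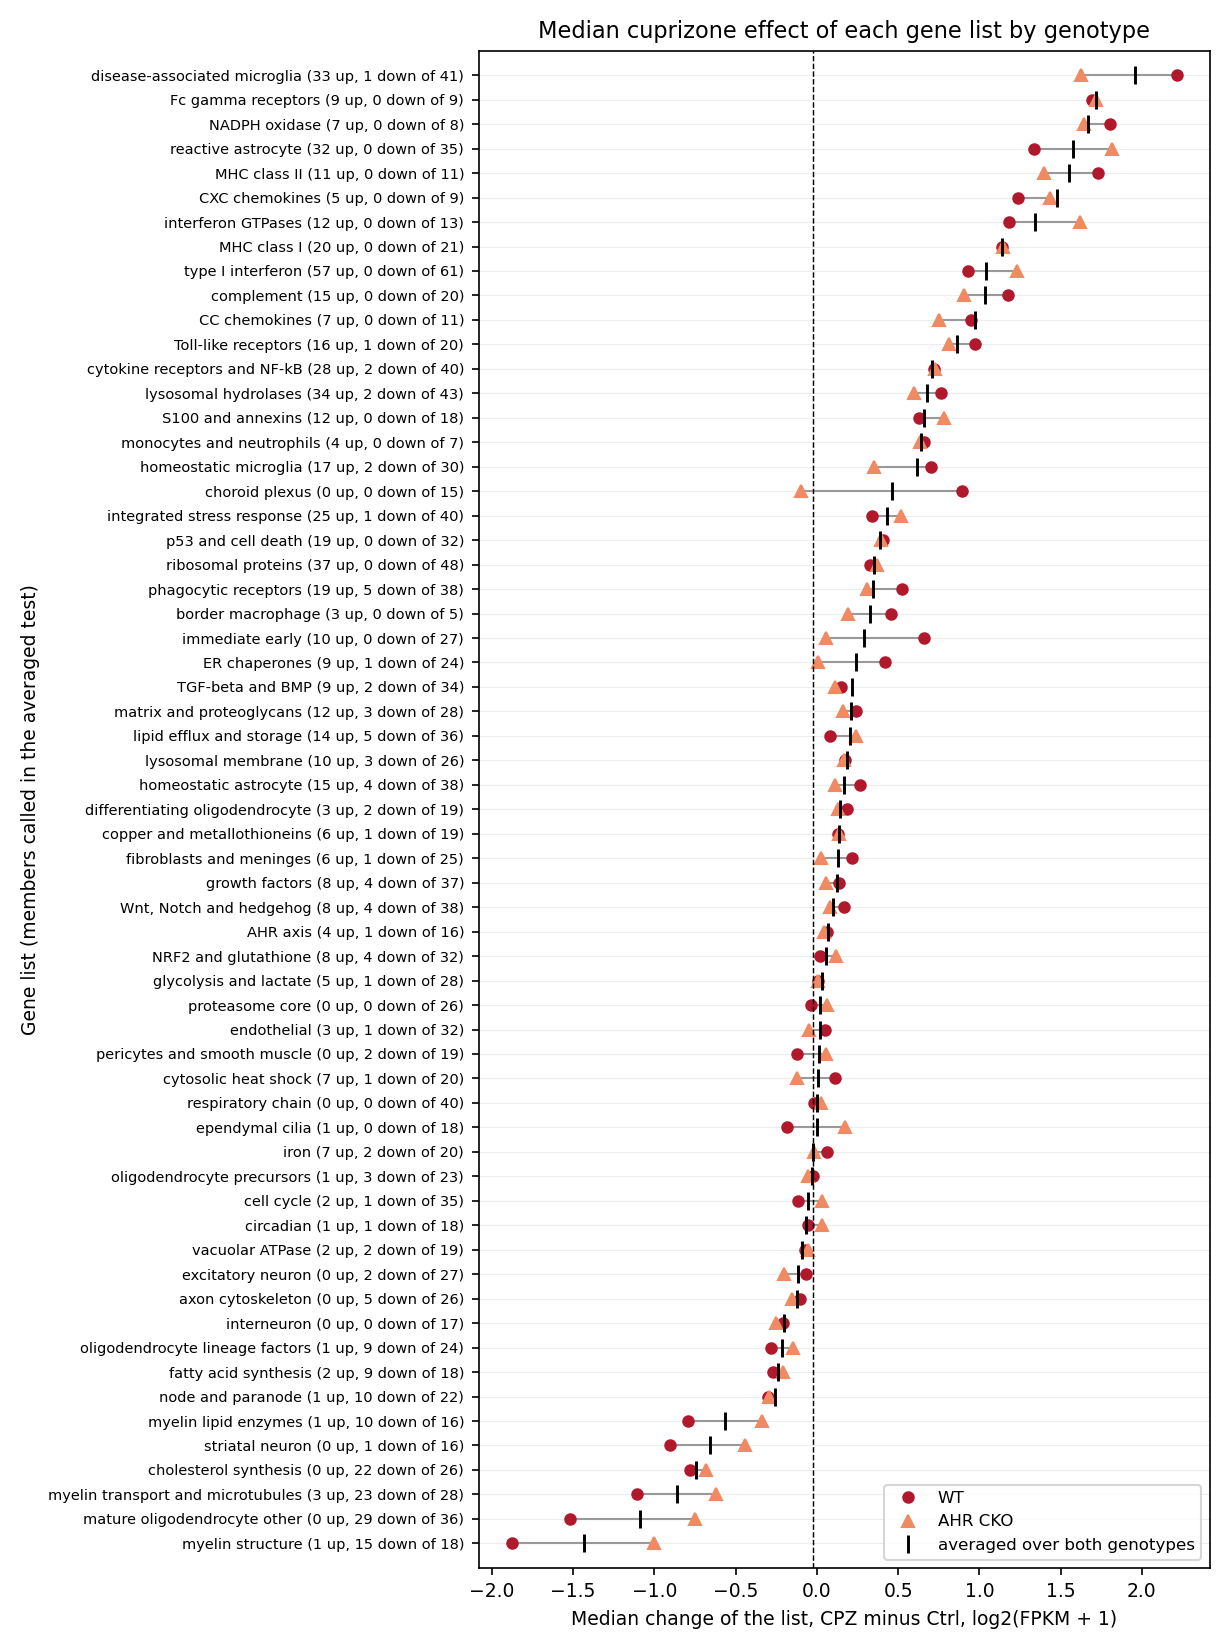
Median log2 change (x axis, CPZ minus Ctrl on log2(FPKM + 1)) of each gene list with at least 5 tested members (y axis), in WT (circles), in AHR CKO (triangles) and averaged (vertical ticks), with the number of members called higher or lower in the averaged test. The dashed line marks the median of all tested genes, -0.026. By averaged median, myelin sheath genes lie furthest left (-1.43) and disease-associated microglial genes furthest right (1.96), while in AHR CKO reactive astrocyte genes lie furthest right (1.82). WT lies further from 0 than AHR CKO for the myelin lists.

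The integrated stress response rose in both genotypes. In this pathway eIF2 phosphorylation slows translation but lets ATF4 act, which switches on genes of amino acid supply through C/EBP-ATF composite elements. Of 40 tested genes 25 rose and 1 fell, with medians of 0.34 in WT and 0.52 in AHR CKO. The letters TGATGNAA, a core of the C/EBP-ATF element, stood on either strand in 3.45% of all 32851 RefSeq promoters of this length. They stood in 10 of the 32 promoters at hand for this list, 31.2%. Windows of 4 members of the common response are shown with the motif in capitals:
Nupr1 (chr7:126625548-126625605, minus strand): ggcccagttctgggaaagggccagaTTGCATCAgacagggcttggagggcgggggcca
Atf3 (chr1:191183411-191183468, minus strand): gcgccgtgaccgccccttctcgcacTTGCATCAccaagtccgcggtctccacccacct
Slc7a11 (chr3:50443647-50443704, minus strand): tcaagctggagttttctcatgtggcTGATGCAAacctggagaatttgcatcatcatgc
Pck2 (chr14:55540138-55540195, plus strand): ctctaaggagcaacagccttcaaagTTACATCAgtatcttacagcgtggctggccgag
TTNCATCA is the same motif on the opposite strand. Nupr1 ran from 4.23 to 12.1 FPKM (median 8.01) in the 6 control libraries and from 42.02 to 137 (median 86.5) in the 6 cuprizone libraries. Nupr1, a small stress-induced chromatin protein, rose 10-fold (log2 change 3.11 ± 0.21, adjusted p = 4.58e-07). Atf3 ran from 0.534 to 1.08 FPKM (median 0.779) in the 6 control libraries and from 6.998 to 15.7 (median 8.39) in the 6 cuprizone libraries. Atf3, a stress-induced transcription factor, rose 12.9-fold (log2 change 2.58 ± 0.13, adjusted p = 5.99e-08), and all CPZ libraries of both genes lay above all Ctrl libraries. Slc7a11, the cystine transporter, rose from 3.61 to 6.59 FPKM (median 5.605) to 10.4 to 24.3 (median 20.7) (log2 change 1.61 ± 0.16, adjusted p = 9.21e-06). Trib3 rose by 2.39, Atf5 by 2.69, Eif4ebp1, an inhibitor of translation, by 1.79, Ddit3, which encodes CHOP, by 1.15 and Pck2 by 0.59 on the log2 scale. Asns, Psat1 and Phgdh, enzymes of asparagine and serine synthesis that also belong to the pathway, were not called (log2 changes -0.004, -0.099 and 0.086).

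For chaperone and immediate early genes the average described the genotypes poorly. Unadjusted interaction p-values under 0.05 were as frequent or more so among myelin genes, with 14 of 18 sheath genes, 23 of 36 other genes of mature oligodendrocytes and 8 of 16 myelin lipid enzymes. Of 24 chaperones and folding factors of the endoplasmic reticulum 9 rose and 1 fell, with a median of 0.42 in WT and 0.010 in AHR CKO, and 12 had an unadjusted interaction p under 0.05. Hspa5, the master chaperone BiP, was 116, 130.4 and 109 FPKM in WT Ctrl and 283, 229 and 241 in WT CPZ. In AHR CKO it was 96.3, 106 and 98.1 and 97.9, 89.5 and 92.4. It separated in WT and overlapped in AHR CKO, and the averaged change was not called (log2 change 0.49 ± 0.18, adjusted p = 0.0644). It was called higher without AHR CKO Ctrl replicate 2 or AHR CKO CPZ replicate 2 (adjusted p = 0.0426 at most), and also on all 12 libraries with the 4 groups as terms (adjusted p = 0.000241). The interaction passed (log2 difference -1.18, adjusted p = 0.0277). The heat shock protein Hspa1b was 1.95, 2.45 and 2.13 in WT Ctrl, 14.2, 19.9 and 10.4 in WT CPZ, 1.71, 2.31 and 3.31 in AHR CKO Ctrl and 2.63, 2.96 and 3.06 in AHR CKO CPZ. Its averaged call (log2 change 1.24 ± 0.32, adjusted p = 0.0132) thus came with separate groups in WT and overlapping ones in AHR CKO (interaction adjusted p = 0.0398). Egr2, an immediate early transcription factor, was 1.199, 1.09 and 0.999 FPKM in WT Ctrl and 5.52 to 8.86 in each of the CPZ libraries, but the AHR CKO Ctrl libraries were already at 7.05, 5.89 and 6.02 (interaction adjusted p = 0.0329). Of 27 immediate early genes 10 rose, with a median of 0.66 in WT and 0.054 in AHR CKO, and 13 had an unadjusted interaction p under 0.05. Zfp36, Maff and Myc rose in the common response (log2 changes 1.18, 1.53 and 1.16). The small heat shock protein Hspb1 rose in both genotypes (log2 change 1.22 ± 0.22, adjusted p = 0.00128).

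Genes of the p53 pathway and cell death rose in 19 of 32 cases and fell in 0, with near-equal medians of 0.41 in WT and 0.39 in AHR CKO. Cdkn1a, the cell cycle inhibitor p21, rose from 8.85 to 12.7 FPKM (median 10.8) to 34.7 to 60.2 (median 50.9) (log2 change 2.06 ± 0.12, adjusted p = 1.38e-07). Eda2r, a death receptor induced by p53, rose by 0.74 and Bbc3, which encodes PUMA, by 0.72 on the log2 scale, while Mdm2, the p53 inhibitor that p53 itself induces, was not called (0.035). Of 35 genes of the cell cycle 2 rose and 1 fell, against 11.9% higher and 10.8% lower over all tested genes. The cyclin Ccnd1 rose (log2 change 0.76 ± 0.062, adjusted p = 1.73e-06), but Mki67, a marker of dividing cells, ran 0.569 to 1.18 FPKM in Ctrl and 0.448 to 1.26 in CPZ libraries (log2 change -0.18 ± 0.10, adjusted p = 0.229). Under quantile normalization Mki67 was called lower (log2 change -0.325, adjusted p = 0.0214).

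Cuprizone binds copper, and of 19 tested genes of copper handling and metallothioneins 6 rose (4 to 6 on leaving out any 1 library), 1 fell and 12 were not called. The shares over all tested genes were 11.9% higher and 10.8% lower. The copper-transporting ATPase Atp7a, the importer Slc31a1 and the chaperone Ccs were not called (log2 changes 0.14, 0.25 and 0.14). The metallothioneins Mt1, Mt2 and Mt3, which bind zinc and copper, rose. Mt2 ran from 220.1 to 364 FPKM (median 336) in the 6 control libraries and from 479 to 861 (median 681) in the 6 cuprizone libraries. Mt2 rose 2.22-fold (log2 change 1.14 ± 0.12, adjusted p = 9.8e-06), Mt1 by 0.75 and Mt3 by 0.62 on the log2 scale. Of 20 iron genes 7 rose and 2 fell. Hmox1, the inducible haem oxygenase, rose from 2.75 to 4.39 FPKM (median 3.51) to 18.02 to 31.7 (median 18.9) (log2 change 2.32 ± 0.14, adjusted p = 1.45e-07), Slc11a1, an iron exporter of phagosomes, rose by 2.65, and the light ferritin chain Ftl1 rose by 0.88. The heavy chain Fth1 was not called (log2 change -0.43 ± 0.17, adjusted p = 0.09), but was called lower without AHR CKO CPZ replicate 1 (adjusted p = 0.0403), after rescaling to a common total (0.0328), under quantile normalization (0.0235) and after the correction for length and GC content (0.0372). Tfrc, the transferrin receptor, fell (log2 change -0.35 ± 0.071, adjusted p = 0.00276). Of 32 genes of NRF2 and glutathione 8 rose and 4 fell. The other 20 were not called. Nfe2l2 itself, which encodes NRF2, rose (log2 change 1.06 ± 0.11, adjusted p = 1.62e-05), and so did Slc7a11 of the same list (log2 change 1.61). Of the common targets of NRF2, Gclm, Srxn1 and Txnrd1 were not called (log2 changes -0.042, 0.073 and 0.030). Of 16 genes of the AHR axis 4 rose and 1 fell. Cyp1b1, a target of AHR, rose from 0.3897 to 0.855 FPKM in Ctrl to 0.938 to 5.58 in CPZ (log2 change 0.92 ± 0.21, adjusted p = 0.00666). Neither genotype fitted apart called Cyp1b1, with log2 changes of 0.654 in WT (adjusted p = 0.0825) and 1.176 in AHR CKO (adjusted p = 0.0506). Arnt, the partner of AHR on DNA, was not called (log2 change -0.000 ± 0.12, adjusted p = 1).

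Cytosolic ribosomal protein genes rose slightly and together. Of 48 tested, 37 rose and 0 fell, and 47 had a positive change. The median log2 change was 0.35, 0.33 in WT and 0.37 in AHR CKO. Fitted apart, WT called 11 of them and AHR CKO 3. Without the genotype covariate 23 were called. Rplp0 ran from 261 to 366 FPKM (median 318) in the 6 control libraries and from 431 to 483 (median 459) in the 6 cuprizone libraries. Rplp0, a protein of the ribosomal stalk often used as a reference gene, rose 1.45-fold (log2 change 0.54 ± 0.070, adjusted p = 7.94e-05). Rps18, also used as a reference, rose from 223 to 357 FPKM (median 277) to 364 to 502 (median 402) (log2 change 0.57 ± 0.086, adjusted p = 0.000285). The list's median stayed between 0.261 and 0.359 under the other scalings. Shorter genes rose more in these libraries, with a correlation across genes of -0.121 between log2 change and log2 transcript length (-0.069 in WT and -0.168 in AHR CKO). After a correction for length and GC content, chosen after seeing the data, 33 ribosomal protein genes were called and the median was 0.284. The part of length in this increase was otherwise not tested. Rpl34 was the one member with a negative change, and it was not called (log2 change -0.91 ± 0.64, adjusted p = 0.34). Its values ran from 11.01 to 355 FPKM over the CPZ libraries, the lowest in WT CPZ replicate 2, against 188 to 262 in Ctrl.

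Of other housekeeping machinery, the respiratory chain and the constitutive proteasome gave no calls. Of 40 subunits of the respiratory chain and of 26 of the constitutive proteasome 0 were called by limma in either direction, with medians of -0.001 and 0.021. At an unadjusted p under 0.05, 4 respiratory chain and 3 proteasome genes differed. Of 28 genes of glycolysis and lactate 5 rose (3 without AHR CKO Ctrl replicate 1 or 2 or AHR CKO CPZ replicate 2) and 1 fell. All tested genes gave 11.9% higher and 10.8% lower. The hexokinases Hk2 and Hk3 rose (1.23 and 1.09), whereas Hk1, the main brain form, and Ldha were not called (0.042 and 0.040).

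**Figure D4:**
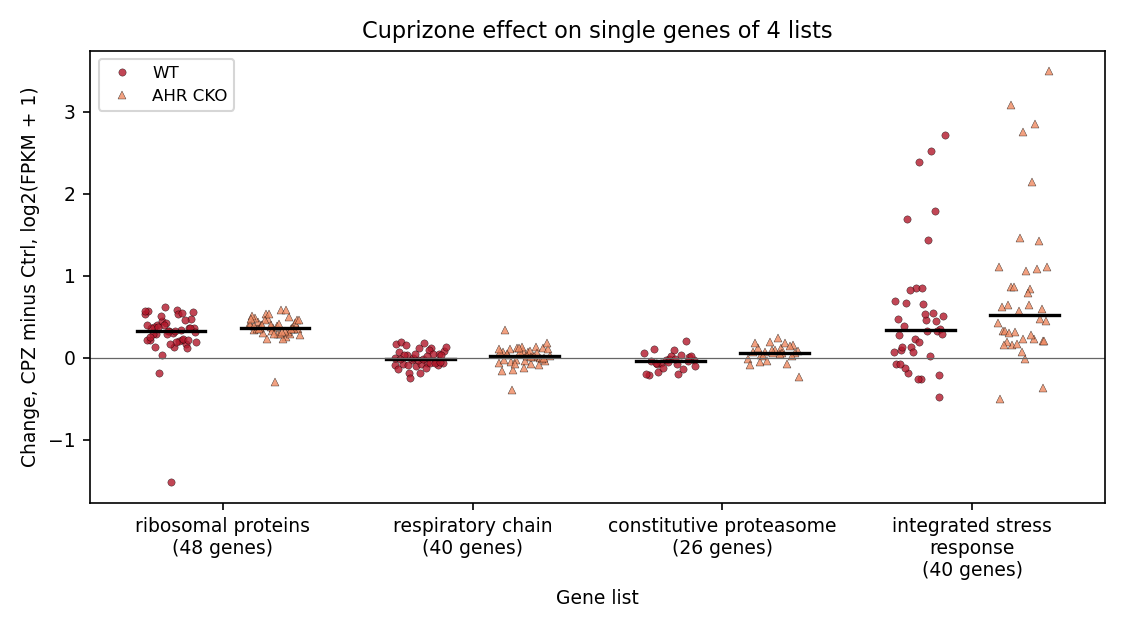
Log2 change with cuprizone (y axis, CPZ minus Ctrl on log2(FPKM + 1)) of each gene in 4 lists (x axis), in WT (circles) and AHR CKO (triangles), with bars at the medians. Ribosomal protein genes centre on 0.33 in WT and 0.37 in AHR CKO, respiratory chain and proteasome genes centre near 0, and the stress response genes spread upward in both genotypes.

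The averaged test called 1218 genes that neither genotype called by itself, 39.1% of its calls. Of these 472 rose and 746 fell, and their median absolute log2 change was 0.30, against 0.468 over all calls. By adjusted p the leading genes were Pttg1ip, Etnk1, Cryz, Map3k8, S1pr2 and Rps10. Pttg1ip, a membrane glycoprotein, was 44.1, 46.5 and 41.6 FPKM in WT Ctrl, 54.3, 55.3 and 51.9 in WT CPZ, 42.9, 39.6 and 42.9 in AHR CKO Ctrl and 50.6, 51.3 and 54.7 in AHR CKO CPZ (log2 change 0.30 ± 0.051, adjusted p = 0.000756). Every CPZ library lay above every Ctrl library. Etnk1, which phosphorylates ethanolamine for membrane lipid synthesis, fell in both genotypes from different levels. It was 94.1, 93.5 and 107 in WT Ctrl and 77.6, 77.01 and 81.4 in WT CPZ, and 84.1, 78.7 and 74.01 in AHR CKO Ctrl and 60.5, 64.6 and 64.9 in AHR CKO CPZ (log2 change -0.31 ± 0.056, adjusted p = 0.00105). Its pooled groups overlapped although each genotype's did not. S1pr2, a sphingosine 1-phosphate receptor, rose from 0.943 to 1.55 FPKM (median 1.37) to 1.88 to 2.68 (median 2.35) (log2 change 0.50 ± 0.091, adjusted p = 0.00136), and Map3k8, a kinase that links NF-kB to MAP kinases, rose from 0.447 to 0.793 to 1.03 to 1.45 FPKM (log2 change 0.51 ± 0.094, adjusted p = 0.00134).

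Most genes of signals that act on the lineage were not called. Of 37 growth factor and receptor genes 8 rose and 4 fell, of 34 genes of TGF-beta and BMP signalling 9 rose and 2 fell, of 38 genes of Wnt, Notch and hedgehog signalling 8 rose and 4 fell, and of 28 matrix genes 12 rose and 3 fell, against 11.9% higher and 10.8% lower over all tested genes. Igf1, a survival factor for oligodendrocytes made by activated microglia, rose from 0.8497 to 1.32 FPKM (median 1.23) to 2.79 to 5.496 (median 4.37) (log2 change 1.29 ± 0.12, adjusted p = 4.91e-06), and Cntf, a cytokine of astrocytes, rose from 0.339 to 2.26 FPKM (median 1.36) to 5.06 to 10.03 (median 6.97) (log2 change 1.83 ± 0.16, adjusted p = 2.46e-06). Among receptors, Fgfr1 rose (log2 change 0.70 ± 0.081, adjusted p = 3.22e-05), whereas Fgfr2 and Erbb3, both of oligodendrocytes, fell (log2 changes -0.75 and -0.97). Tgfb1 was joined by its receptors Tgfbr1 (1.02) and Tgfbr2 (1.16), while Smad7, an inhibitor of the pathway, fell (log2 change -0.52 ± 0.096, adjusted p = 0.00139). Of the inhibitory matrix, Fn1, which encodes fibronectin, rose (log2 change 1.04 ± 0.18, adjusted p = 0.000986), Ncan, which encodes neurocan, fell (log2 change -0.34 ± 0.095, adjusted p = 0.0201), and Vcan and Bcan were not called (-0.032 and 0.072). Hhip, a hedgehog-binding protein of the lineage, fell (log2 change -1.14).

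Most neuronal and vascular genes were not called. Over all tested genes 11.9% were called higher and 10.8% lower. Of 27 genes of excitatory neurons 0 rose and 2 fell, and 20 had a negative change. Of 26 axonal genes 0 rose and 5 fell, a larger share than over all tested genes, and 20 had a negative change. Only 3 axonal genes fell without WT Ctrl replicate 1 or 2, WT CPZ replicate 3 or AHR CKO Ctrl replicate 1. Of 17 interneuron genes limma called 0, and 4 had an unadjusted p under 0.05. Mapt, which encodes tau, fell (log2 change -0.56 ± 0.075, adjusted p = 0.000111), and the neurofilaments Nefl and Nefh were not called (-0.075 and 0.076). Of 32 endothelial genes 3 rose and 1 fell. The adhesion molecules Icam1 and Vcam1 rose (1.47 and 0.70), whereas Cldn5 and Pecam1 were not called (0.13 and -0.071). Markers of structures next to the tract varied between libraries. All 16 striatal genes had a negative change (median -0.66), 1 of them called (0 to 4 on leaving out any 1 library), and their sum ran from 908 to 3555 FPKM in WT Ctrl and from 652 to 1222 in WT CPZ. In AHR CKO it ran from 1626 to 2599 in Ctrl and from 1091 to 2053 in CPZ. Of 15 choroid plexus genes limma called 0, and 0 had an unadjusted p under 0.05. A positive change was seen in 14 of the 15, with medians of 0.89 in WT and -0.098 in AHR CKO. Their sum ran from 112 to 3338 FPKM within WT CPZ alone. How far the cut of the tissue moves with the results was not tested.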

How the data were processed

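Per the labels' protocols, corpus callosum RNA was isolated with a Qiagen RNeasy kit and SMARTER mRNA-Seq reagents were used for the libraries. The authors deposited 1 table of FPKM values for 15584 gene symbols and 12 libraries, per the file headers. Builds GRCm38 and mm10 are named in the submitters' processing notes, while the sources used here name no aligner, quantifier or earlier filter. FPKM hides the read number, so depth was only estimated, from the smallest steps of FPKM times length in 9 to 31 genes per library, within limits set after seeing the values. Listed zeros were absent from 5 of the 6 WT libraries, against 52 to 94 genes at 0 in each of the other 7. The table held 25 symbols that had become dates, which are not named.

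Genes reaching FPKM 1 in at least 3 libraries (13759, 88.29%) were tested on log2(FPKM + 1) with limma 3.58.1 in R 4.3.3 (lmFit, eBayes with trend, two-sided, Benjamini-Hochberg over all tested genes, threshold 0.05). The averaged fit had genotype and treatment as terms, and the interaction came from a fit of the 4 groups. WT and AHR CKO were also fitted apart. Errors after ± are standard errors of the log2 change. The code was tested on simulated data.

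The 63 gene lists (1625 symbols, 1509 in the table, 1428 tested) and the genes followed were chosen with earlier results of these data known. They are described by counts and medians beside those of all tested genes, with no test of a list. Genes named in the text are the 15 largest increases and decreases of the common response, up to 4 called members of each list by adjusted p and members that went against their list, the 8 called genes of highest FPKM in each direction, the 6 of smallest interaction p, Ahr and Cx3cr1, the 6 leading genes called in neither genotype apart, and other list members chosen by role. Results for some genes that meet this rule are not reported here. Gene positions and lengths came from GENCODE M21 (GRCm38) and promoters from RefSeq (GRCm38.p6), which held 10896 of the tested genes (79.2%). Of 7 motifs searched, those of the 2 groups described are shown. The others are not reported here, whether or not the genes they belong to held them.

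Alternatives were pseudocounts of 0.1 and 0.5, no filter, a minimum mean FPKM of 5, 3 other scalings, sample quality weights, no trend, 4 groups as terms, no genotype covariate, 2 replicate blocks, a fold minimum of 2, each genotype only, leaving out each library, and a correction for length and GC content added after seeing the data.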

Additional observations from a re-analysis of the deposited data

Results flagged for a closer look

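The cuprizone effect differed between genotypes for 5 genes by the interaction test of limma, with Benjamini-Hochberg adjustment over all tested genes. Hspa5 had an adjusted p of 0.0277, with log2 changes of 1.08 in WT and -0.10 in AHR CKO. Egr2 had an adjusted p of 0.0329 (1.83 and 0.20), and its AHR CKO controls were already at the WT cuprizone level. Aspa had an adjusted p of 0.0398 (-3.17 and -1.304). Hspa1b had an adjusted p of 0.0398 (2.27 and 0.20). Opalin, a membrane protein of oligodendrocytes, had an adjusted p of 0.0465 (-3.18 and -1.17). Its WT libraries were 147, 175 and 90.6 FPKM in Ctrl and 11.8, 13.1 and 16.9 in CPZ, and its AHR CKO libraries 123, 123 and 120.1 and 64.2, 46.6 and 51.9. Its treatments were thus separate in each genotype. The calls of all 5 were lost without WT Ctrl replicate 1, any AHR CKO Ctrl replicate, or AHR CKO CPZ replicate 1 or 2, since none of these fits called any gene.

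In 3 other genes, named after their values were seen, every CPZ library lay on opposite sides of Ctrl in the 2 genotypes, a pattern seen in 72 genes in all (0.523%). How many genes would show this pattern by the random order of 3 against 3 libraries was not tested. The pattern alone is therefore no sign that the genotypes differed in these genes. Fbxo7, a component of a ubiquitin ligase, was 26.6, 32.1 and 22.5 FPKM in WT Ctrl, 14.9, 16.7 and 16.9 in WT CPZ, 21.6, 21.9 and 21.5 in AHR CKO Ctrl and 29.5, 28.4 and 25.3 in AHR CKO CPZ. The difference of its log2 changes was 1.04 and did not pass the interaction test (adjusted p = 0.0673). Ciart, a repressor in the circadian clock, was 10.04, 11.8 and 10.7 in WT Ctrl, 3.88, 6.31 and 7.02 in WT CPZ, 12.97, 13.7 and 14.7 in AHR CKO Ctrl and 20.5, 24.5 and 17.3 in AHR CKO CPZ. It was the one gene called in opposite directions by the separate fits, with a difference of 1.39 that did not pass the interaction test (adjusted p = 0.0874). Dbp, a clock output gene, was 74.97, 66.2 and 91.5 FPKM in WT Ctrl, 26.98, 45.4 and 40.9 in WT CPZ, 85.4, 81.1 and 89.1 in AHR CKO Ctrl and 128, 147 and 91.8 in AHR CKO CPZ. Its difference of 1.53 did not pass the interaction test either (adjusted p = 0.122).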

How the results depend on the processing

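The averaged count of 3112 genes stayed between 2093 and 3468 under the other scalings, filters, pseudocounts, weights and model terms run on all 12 libraries. It was 536 with a fold minimum of 2, 1880 with WT libraries only and 1172 with AHR CKO libraries only. Leaving out 1 library gave 2570 to 3259 averaged calls, 2065 to 2560 genes of the common response, 619 to 916 genes called in both genotypes apart and 0 to 103 interaction calls. The definition of the common response is easier to meet in these fits, since fewer libraries must be apart in that genotype. Its counts there are therefore not directly comparable with the main count. With a fold minimum of 2 the common response held 524 genes, and both genotypes apart called 386. Sample quality weights raised the genes called in both apart to 2064 and the interaction calls to 2556, with weights of 0.338 to 6.933 per library, and the cause was not tested. Interaction calls were 1 with no filter on low values, 2 with no trend in the prior variance and 10 after the correction for length and GC content. Same-numbered libraries of different groups correlated with r from -0.343 to 0.250 in their deviations from group means. For differently numbered libraries r ran from -0.396 to 0.440. Deviations within a group of 3 sum to 0, so these values cannot decide whether the replicate numbers pair the samples. With the replicate number as a block the averaged count was 2672, and 2552 with a block within each genotype. The common response held 2009 and 1913 genes, both genotypes apart called 661 and 661, and the interaction called 0 and 0. Ly6c2 aside, whose alternatives are not reported here, no named gene that was called changed sign while called under any alternative. With AHR CKO libraries only, Ciart, which the average did not call, was called higher (log2 change 0.546). With WT libraries only, Hspa5, Cx3cr1, Mertk, Nr1d1, Cldn5, Cxcl12, S100b, Fbxo7, Ciart and Dbp, which the average did not call, were called as well. Thy1 was called lower under quantile normalization and after the correction for length and GC content. Of the 170 called genes named other than Ly6c2, 2 (Sox10 and Clock) lost the call in a leave-one-out fit and 7 (Ncan, Egr2, Hspa1b, Etnk1, Enpp6, Nfil3 and Clock) without the genotype covariate. Sox10 also lost it with the block within each genotype, and Clock under both blocks, after rescaling to a common total and after the correction for length and GC content. Many more of the 170 lost the call with AHR CKO libraries only (29), with WT libraries only (17) or with a fold minimum of 2 (54). With AHR CKO libraries only, these included Sox10 (log2 change -0.144, adjusted p = 0.33) and Enpp6 (log2 change -0.529, adjusted p = 0.268). A pseudocount of 0.1 raised medians of lists with low genes, for type I interferon genes from 1.04 to 1.67. FPKM below about 1 rest on few fragments, which limits Gldn, Tgm1, Map3k8 and the control levels of Cst7, Clec7a, Cxcl10 and Cyp1b1.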

Other observations

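Of 18 clock genes the average called Nfil3 higher (log2 change 0.44 ± 0.11, adjusted p = 0.009) and Clock lower (log2 change -0.24 ± 0.077, adjusted p = 0.0378), and none belonged to the common response. Calls over all tested genes were 11.9% higher and 10.8% lower. The call of Clock was lost without WT Ctrl replicate 2 or 3, WT CPZ replicate 2 or 3, AHR CKO Ctrl replicate 1 or 2, or AHR CKO CPZ replicate 1 or 2 (largest adjusted p = 0.0898). Nr1d1, a core repressor of the clock, was 61.3, 60.1 and 75.8 FPKM in WT Ctrl, 27.3, 38.6 and 29.99 in WT CPZ, 59.2, 63.7 and 69.7 in AHR CKO Ctrl and 66.6, 77.4 and 70.1 in AHR CKO CPZ. Its treatments were separate in WT and overlapped in AHR CKO, and its interaction was not called (adjusted p = 0.0673). The averaged change was not called (adjusted p = 0.111) but was called lower with the 4 groups as terms (adjusted p = 0.00436). Of the 18, 6 had an unadjusted interaction p under 0.05, and none passed the interaction test. The sources used here do not give the hour of dissection.

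Ptgds, the prostaglandin D synthase of meninges, choroid plexus and oligodendrocytes, fell in the average (log2 change -1.25 ± 0.26, adjusted p = 0.0033). Its libraries were 589.7, 796 and 543 FPKM in WT Ctrl, 199, 145 and 158 in WT CPZ, 789.9, 726 and 793 in AHR CKO Ctrl and 796, 327 and 536 in AHR CKO CPZ. The treatments were separate in WT and overlapped in AHR CKO, and the interaction test did not pass (adjusted p = 0.271). The summed FPKM of 28 fibroblast and meningeal genes, Ptgds included, ran from 636 to 911 in WT Ctrl, 302 to 384 in WT CPZ, 921 to 968 in AHR CKO Ctrl and 517 to 1037 in AHR CKO CPZ.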
